A study of Arabidopsis thaliana with 41 samples.

Results

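The CBF factors and genes that they are known to switch on in the cold were followed in rosette leaves of Arabidopsis thaliana. The zinc finger factor gene ZAT12 was part of the same set. The set was given as 10 loci, and 8 of them were in the table of 21164 loci: the transcription factor genes CBF1 (AT4G25490), CBF2 (AT4G25470) and CBF3 (AT4G25480), the target genes COR15A (AT2G42540), COR15B (AT2G42530), RD29A (AT5G52310) and GOLS3 (AT1G09350), and the zinc finger factor gene ZAT12 (AT5G59820). KIN1 and KIN2, the other two, are not analysed here. None of the 8 had the same values as another locus.

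Leaf RNA was hybridised to 41 single-colour oligonucleotide arrays. The plants came from 7 natural accessions (Ag-0, Ull2-5, Tamm-2, Omo2-3, Got-22, Eden-1 and Bil-5), each under continued watering (wet, soil water near 90% of capacity) and after slow soil drying (dry, about 50%). There were 3 arrays for every accession and soil, apart from Ag-0 in dry soil (2), so 21 were wet and 20 dry. All plants, wet ones included, grew at 23 °C by day and 18 °C by night in a 10 h photoperiod, and no cold treatment is named in the labels. Levels below are log2 signals as deposited. A leaf holds many cell types, and fewer cells of a type cannot be told apart from less RNA per cell.

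CBF proteins belong to the AP2/ERF family and bind a short promoter element, the C-repeat or dehydration-responsive element. They are best known as the switch of cold acclimation: their genes are induced within minutes of chilling, and the proteins then activate COR genes, whose products protect membranes and proteins against freezing. The same element is read by DREB2 proteins under drought and heat, and several COR promoters also hold elements that respond to abscisic acid, so the targets can be induced by water deficit without a CBF. In warm-grown plants the CBF genes follow the circadian clock and also respond to touch. By locus order CBF2, CBF3 and CBF1 lie next to each other on chromosome 4, and COR15B and COR15A on chromosome 2. Members of both clusters are similar in sequence, so signal shared between neighbours and separate expression cannot be told apart from these values.

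The arrays had near-equal medians, from 5.66 to 5.79. Leaf markers were high (group means of 3 measured genes from 11.20 to 12.74), and 4 root markers (4.26 to 4.53) and 4 flower and seed markers (3.97 to 4.12) lay close to the array floor, taken as the 10th percentile of all loci on an array (3.95 to 4.04). No group mean of the 8 genes was below that floor. Quality weights were under 0.5 for 3 arrays: the second wet and the third dry array of Bil-5, and the third dry array of Tamm-2. Accessions differ in sequence from the reference, so weak probe binding and low expression cannot be told apart where an accession reads low.

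Whether mild drying moves this pathway was asked by averaging dry minus wet over the 7 accessions. COR15A rose, GOLS3 fell, and the other 6 genes did not pass. The test was limma's moderated test over all 21164 loci, with Benjamini-Hochberg adjustment and a threshold of 0.05. Over all loci 12.2% rose and 11.5% fell (23.7% in either direction), so 1 of 8 in each direction is close to the background. The median change of the 8 genes was -0.04 on the log2 scale, against 0.00 (-0.000186) over all loci. The 3 CBF genes had no detectable change, and the intervals below bound what could have been missed.

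**Figure D1:**
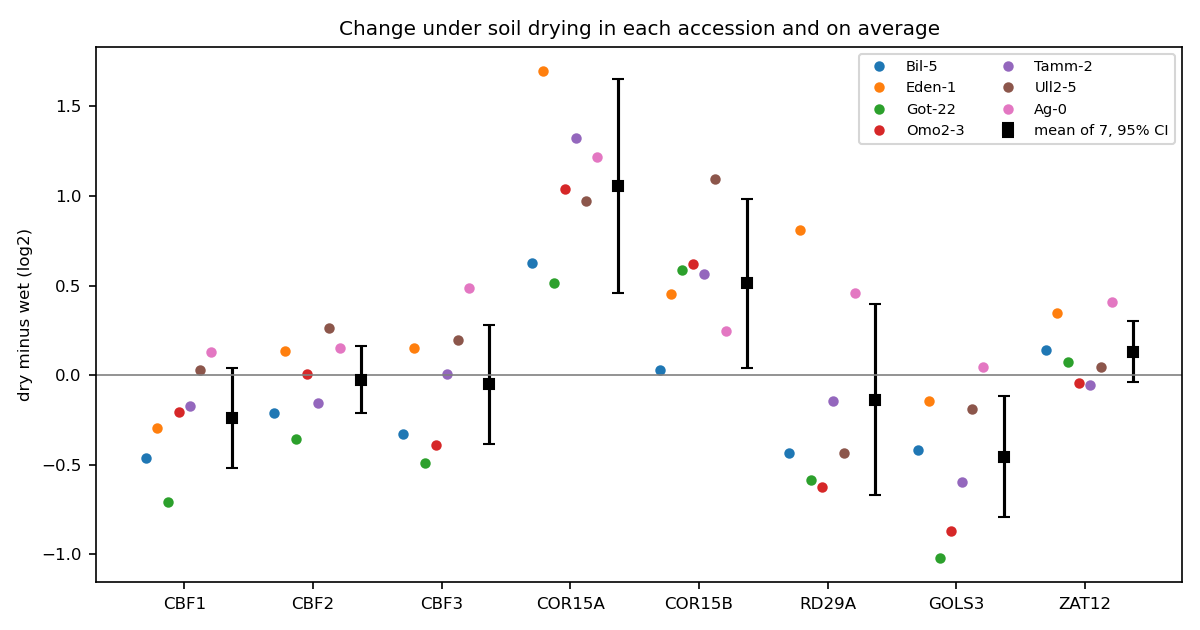
Dry minus wet on the log2 scale for each gene, with 1 coloured point per accession and a black square for the mean of the 7 accessions with its 95% confidence interval. All 7 points of COR15A lie above 0 and its mean is 1.06; the intervals of CBF1, CBF2, CBF3, RD29A and ZAT12 include 0.

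COR15A encodes a small chloroplast protein that protects membranes during freezing. In Bil-5 its log2 signal was 8.77, 9.51 and 9.76 on dry arrays and 8.38, 9.06 and 8.73 on wet arrays. In Eden-1 it was 6.82, 8.03 and 7.19 dry and 5.34, 6.61 and 5.00 wet. In both accessions the dry mean was the higher, and in Eden-1 the dry and wet arrays did not overlap. In Got-22 the values were 10.53, 8.41 and 7.89 dry and 6.63, 9.64 and 9.02 wet, the widest spread of any accession. In Omo2-3 they were 8.36, 7.70 and 8.53 dry and 5.90, 7.48 and 8.09 wet. In Tamm-2 they were 9.88, 7.26 and 9.89 dry and 8.26, 6.94 and 7.86 wet. Single arrays of these 3 accessions thus differed from their own group by more than the mean effect of drying. In Ull2-5 they were 8.79, 7.50 and 7.89 dry and 6.39, 6.69 and 8.19 wet, and in Ag-0 8.35 and 8.36 dry and 7.51, 7.92 and 5.97 wet. Wet replicate 3 of Ull2-5 (1.10 from its group mean) and of Ag-0 (-1.16) also differed by more than the mean effect. Only in Eden-1 and Ag-0 were all dry arrays above all wet arrays.

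Averaged over accessions COR15A rose by 1.06 ± 0.29 (SE, 20 dry and 21 wet arrays), or 2.08-fold, with a 95% interval from 0.46 to 1.65 and limma's adjusted p of 0.00833. The mean was higher in dry soil in 7 of 7 accessions. The call held without any single array (adjusted p up to 0.0153) and without any accession (up to 0.0394). COR15B, its neighbour and close relative, pointed the same way in 7 of 7 accessions, with a difference of 0.51 ± 0.23 that did not pass (adjusted p = 0.110). Its dry arrays ran from 8.95 through a median of 9.84 to 11.65 and its wet arrays from 8.04 through 9.59 to 10.66, so the groups overlapped widely. Other measures moved with drying as well: the touch genes TCH4 (0.51 ± 0.09) and TCH2 (0.39 ± 0.09) rose, the clock gene PRR5 changed by -0.46 ± 0.13, and RAB18, an abscisic acid marker, rose by 1.02 ± 0.23 (limma's adjusted p of 6.1e-05, 0.00223, 0.0112 and 0.00156). PRR5 was lower in dry soil in 5 of 7 accessions, and its call ended without Tamm-2, Ull2-5 or Ag-0 (adjusted p up to 0.0744). The other 3 touch genes were not called (WRKY40 0.33, TCH3 -0.06 and CML39 -0.05), nor were the other 6 clock genes (-0.02 to 0.36). Of the 3 other abscisic acid markers RD22 and RD20 fell in 7 of 7 accessions and RD29B was not called. The leaf marker PSBO1, a photosystem subunit gene, rose by 0.28 ± 0.09 in 6 of 7 accessions (0.0186), a call that ended without Got-22 (0.0781), and the other two leaf markers were not called. The part of touch, the clock, abscisic acid or leaf makeup in the COR15A rise was not tested.

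GOLS3 encodes a galactinol synthase, which makes the donor for raffinose synthesis, and is the cold-induced member of its family. On wet arrays it ran from 5.03 through a median of 5.75 to 8.05, and on dry arrays from 4.71 through 5.58 to 7.48. High values came from wet Bil-5 (7.58, 6.72 and 7.62) and wet Got-22 (5.66, 8.05 and 7.49). Dry Bil-5 read 6.53, 7.48 and 6.66 and dry Got-22 6.91, 5.71 and 5.52, so wet and dry arrays overlapped in both. The mean change was -0.46 ± 0.16 (limma's adjusted p = 0.0433), lower in dry soil in 6 of 7 accessions. This call was marginal. It ended without any of 23 single arrays, with an adjusted p of up to 0.0911 (without Ag-0 dry replicate 2). It also ended when any accession other than Ag-0 was left out, with 0.129 at the highest (without Omo2-3).

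The CBF genes themselves differed little between dry and wet soil. CBF1 read 8.24 to 10.80 on dry arrays (median 9.78) and 8.69 to 10.98 on wet arrays (median 10.12), a difference of -0.24 ± 0.14 (95% interval -0.52 to 0.04, limma's adjusted p = 0.221). It was lower in dry soil in 5 of 7 accessions. CBF2 read 9.35 to 11.24 dry (median 10.24) and 9.44 to 11.08 wet (median 10.24), a difference of -0.02 ± 0.09 (-0.21 to 0.16, adjusted p = 0.892). CBF3 read 6.98 to 9.54 dry (median 8.14) and 6.75 to 9.63 wet (median 8.21), a difference of -0.05 ± 0.16 (-0.38 to 0.28, adjusted p = 0.872). The upper ends of these 3 intervals lie below the lower end of that of COR15A (0.46). Whether the change of COR15A differed from that of a CBF gene was not tested.

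RD29A, a widely used reporter whose promoter holds both the C-repeat element and an abscisic acid element, stood at 9.59 ± 1.22 (SD, n = 20) on dry and 9.70 ± 1.33 (SD, n = 21) on wet arrays. The mean difference over accessions was -0.14 ± 0.26 (95% interval -0.67 to 0.40, adjusted p = 0.778), with 5 of 7 accessions lower in dry soil. Its direction was not stable: without Tamm-2 dry replicate 2 the difference was 0.01. The differences of CBF2 (-0.06 to 0.01) and CBF3 (-0.12 to 0.02) also changed sign when single arrays were left out. ZAT12, induced by many stresses and able to lower CBF expression when overexpressed, read 10.32 to 11.53 dry (median 11.15) and 10.04 to 11.48 wet (median 10.92). Its difference was 0.13 ± 0.08 (-0.04 to 0.30, adjusted p = 0.291).

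Within single accessions none of the 56 drying changes (8 genes in 7 accessions) passed limma's adjusted threshold, and 2 had an unadjusted p under 0.05. The background was 1.1% of all locus and accession pairs: 4.2% in Bil-5, 1.41% in Ull2-5, 1.26% in Tamm-2, 0.421% in Ag-0, 0.298% in Eden-1, 0.0945% in Got-22 and 0% in Omo2-3. The 2 were COR15A in Eden-1 (1.70 ± 0.76, unadjusted p = 0.0339, adjusted p = 0.566) and GOLS3 in Got-22 (-1.02 ± 0.43, unadjusted p = 0.0240, adjusted p = 0.411). Fits on the arrays of 1 accession alone also called 0 of the 56. The moderated F test of whether the 7 drying changes were equal called none of the 8 genes (adjusted p = 0.999924 for each, with 0 genes at an unadjusted p under 0.05), and 0.0284% of all loci. RD29A ran from -0.62 in Omo2-3 to 0.81 in Eden-1 and CBF1 from -0.71 in Got-22 to 0.13 in Ag-0, spreads that the interaction test did not separate from replicate error.

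How far the accessions differ was asked next. Eden-1 had the lowest mean of 7 of the 8 genes and Bil-5 the highest of 6. The moderated F test of equal accession means, over both soil water levels, called 7 of the 8 genes, against 31.4% of all loci. CBF2 had F = 17.6 (limma's adjusted p = 7.63e-07), CBF1 12.1 (1.88e-05), GOLS3 10.1 (8.27e-05), CBF3 9.84 (9.81e-05), RD29A 9.70 (0.000109), COR15A 4.87 (0.00800) and ZAT12 3.97 (0.0208). COR15B was not called (F = 2.72, adjusted p = 0.0851). Accession accounted for 75.8% of the sum of squares of CBF2, 67.2% of CBF1 and 64.6% of CBF3, against a median of 24.1% over all loci. Soil water accounted for 0.0749%, 3.13% and 0.184% of theirs, and for 17.7% of that of COR15A.

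**Figure D2:**
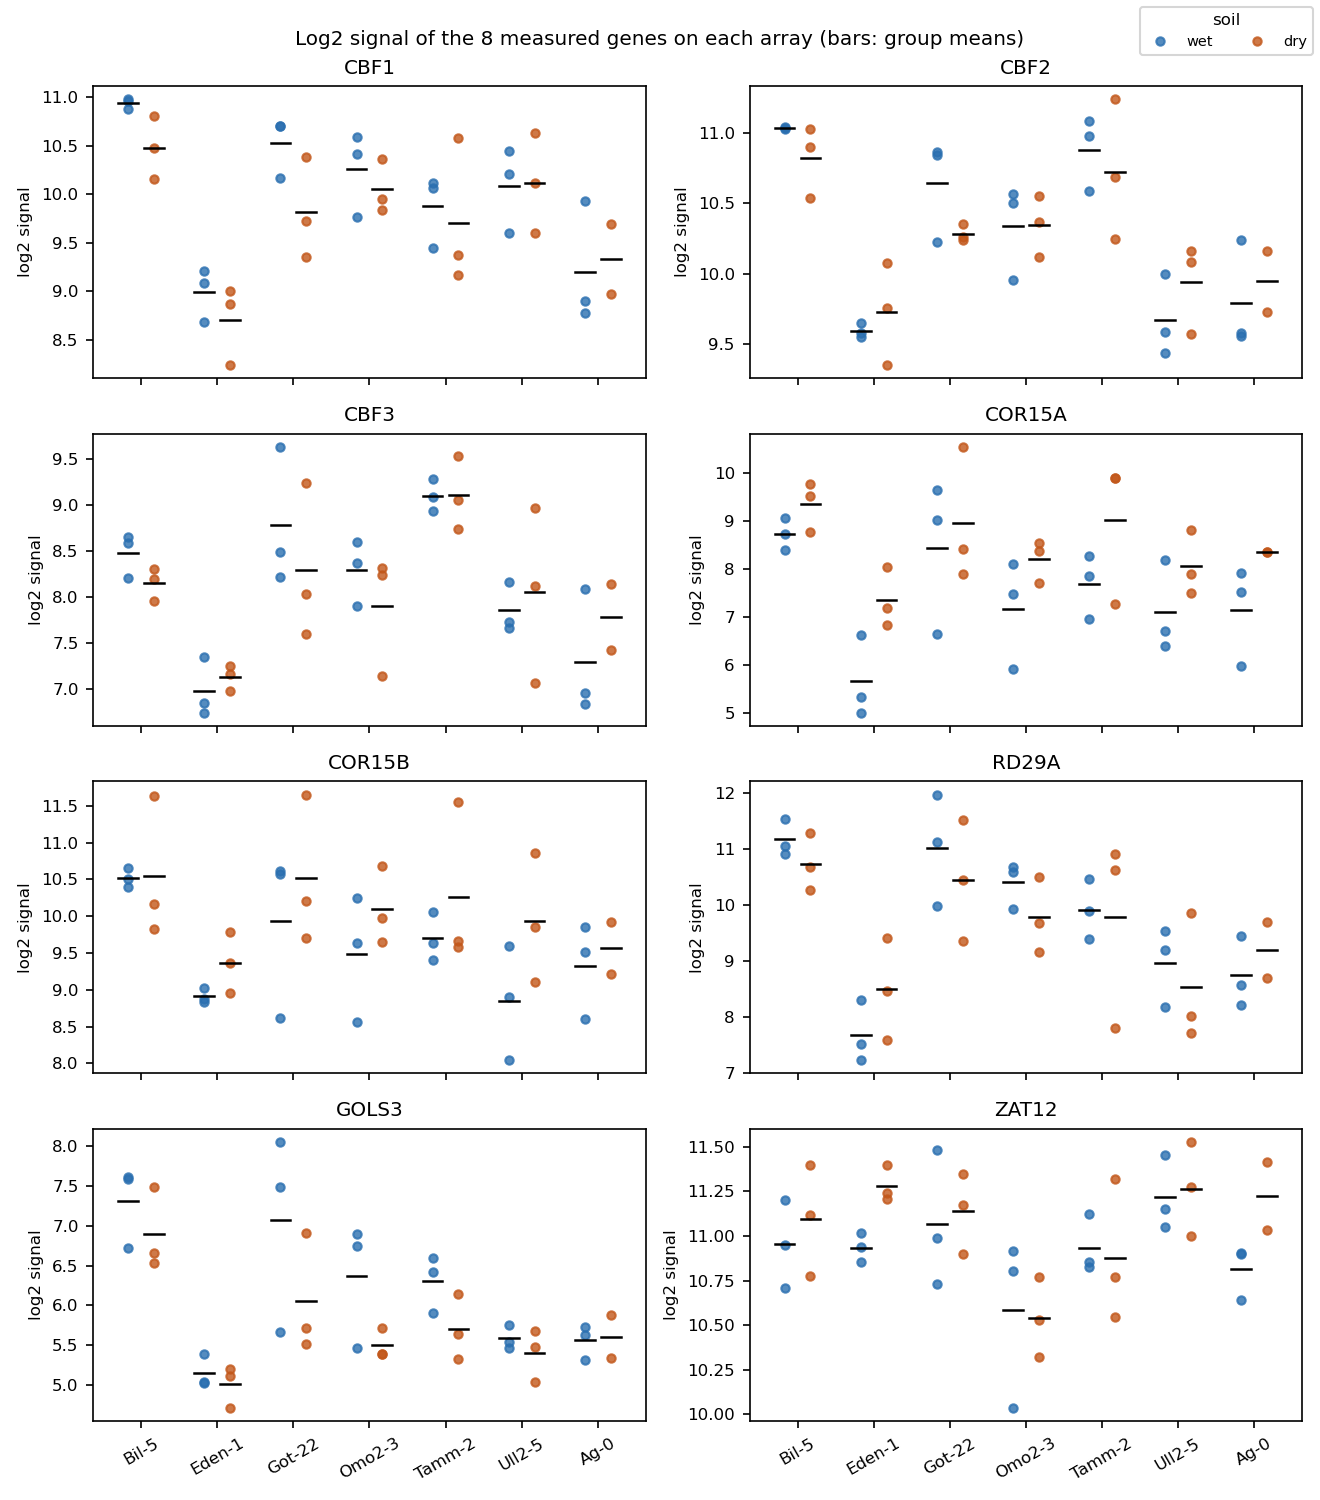
Log2 signal of each gene on every array, by accession on the horizontal axis, with wet arrays in blue, dry arrays in orange and a bar at each group mean. Eden-1 arrays are lowest on average for CBF1 (8.24 to 9.21) and Bil-5 arrays highest, and the dry and wet arrays of an accession mostly overlap.

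Bil-5 was high and Eden-1 low for CBF1. On wet arrays CBF1 read 10.98, 10.88 and 10.96 in Bil-5 and 9.21, 8.69 and 9.09 in Eden-1. On dry arrays it read 10.15, 10.47 and 10.80 in Bil-5 and 8.87, 8.24 and 9.00 in Eden-1. No array of Eden-1 reached any array of Bil-5, at either water level. Means over both water levels ran from 10.71 (Bil-5) through Got-22 (10.17), Omo2-3 (10.15), Ull2-5 (10.10), Tamm-2 (9.79) and Ag-0 (9.27) to 8.85 (Eden-1), a 3.63-fold range. The array ranges of each pair of neighbours in this order overlapped, so the order in the middle is not resolved.

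CBF2 followed the same extremes with 1 more accession at the top. Means ran from 10.92 in Bil-5 and 10.80 in Tamm-2 through Got-22 (10.46) and Omo2-3 (10.34) to Ag-0 (9.87), Ull2-5 (9.81) and Eden-1 (9.66), a 2.40-fold range. Wet Bil-5 read 11.04, 11.02 and 11.03, wet Tamm-2 10.97, 10.59 and 11.08, and wet Eden-1 9.55, 9.58 and 9.65. Dry Bil-5 read 10.54, 11.03 and 10.89, dry Tamm-2 11.24, 10.69 and 10.25, and dry Eden-1 9.76, 9.35 and 10.08. All arrays of Bil-5 and Tamm-2 were above all arrays of Eden-1. Neighbours in the order overlapped here too.

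CBF3 was led by Tamm-2. Its arrays read 9.09, 8.94 and 9.29 wet and 9.54, 9.06 and 8.75 dry, with a mean of 9.11 over both water levels. Eden-1 read 6.85, 7.35 and 6.75 wet and 7.17, 6.98 and 7.26 dry, a mean of 7.06 and 4.15-fold lower. These arrays did not overlap. Got-22 (8.54), Bil-5 (8.32), Omo2-3 (8.10), Ull2-5 (7.96) and Ag-0 (7.54) lay between, each overlapping its neighbours.

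RD29A had the widest range of the 8 genes, 7.31-fold from Bil-5 (10.96) to Eden-1 (8.09). Wet Bil-5 read 10.92, 11.06 and 11.55 and dry Bil-5 10.27, 11.28 and 10.67. Wet Eden-1 read 7.52, 8.30 and 7.23 and dry Eden-1 9.42, 8.46 and 7.59. All Bil-5 arrays were above all Eden-1 arrays. Between them came Got-22 (10.73), Omo2-3 (10.10), Tamm-2 (9.85), Ag-0 (8.97) and Ull2-5 (8.75), with overlap between all neighbours. COR15A spanned 5.80-fold, from Bil-5 (9.04) to Eden-1 (6.50). GOLS3 spanned 4.06-fold, from Bil-5 (7.10, arrays 6.53 to 7.62) to Eden-1 (5.08, arrays 4.71 to 5.39). COR15B spanned 2.63-fold between the same accessions. ZAT12 had the narrowest range, 1.60-fold, and another order, from Ull2-5 (11.24) to Omo2-3 (10.56).

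**Figure D3:**
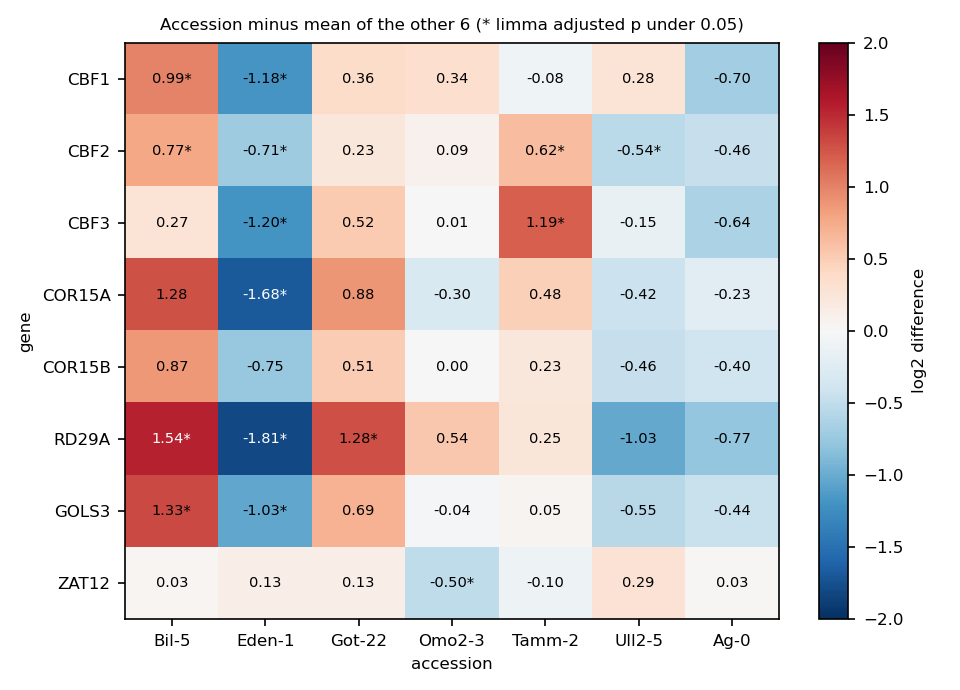
Log2 difference of each accession (columns) from the mean of the other 6 for each gene (rows), both soil water levels weighted equally, with an asterisk where limma's adjusted p was under 0.05. Eden-1 is below the others for CBF1, CBF2, CBF3, COR15A, RD29A and GOLS3, and Bil-5 above for CBF1, CBF2, RD29A and GOLS3.

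Set against the mean of the other 6 accessions, 15 of the 56 member values passed limma's threshold, against 8.34% of all locus and accession pairs. These contrasts share arrays and are not independent of each other. Eden-1 was lower for 6 of the 8 genes and higher for 0, where 8.09% of all loci were called lower and 10.7% higher in Eden-1. The differences were -1.18 ± 0.19 for CBF1 (adjusted p = 3.97e-05), -0.71 ± 0.13 for CBF2 (0.000170), -1.20 ± 0.23 for CBF3 (0.000297), -1.68 ± 0.41 for COR15A (0.00403), -1.81 ± 0.37 for RD29A (0.000670) and -1.03 ± 0.23 for GOLS3 (0.00176). COR15B differed by -0.75 (adjusted p = 0.104). All 6 calls held without any single array. Without Eden-1 the accession effect on COR15A ended (F = 2.33, adjusted p = 0.197), and those on CBF1, CBF2, CBF3, RD29A and GOLS3 held.

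Bil-5 was higher for 4 of the 8 genes and lower for 0, against 2.24% and 2.26% of all loci. The differences were 0.99 ± 0.19 for CBF1 (limma's adjusted p = 0.00152), 0.77 ± 0.13 for CBF2 (0.000288), 1.54 ± 0.37 for RD29A (0.0110) and 1.33 ± 0.23 for GOLS3 (0.000516). COR15A was higher by 1.28 ± 0.41 without passing (adjusted p = 0.0724). The RD29A call ended without Bil-5 dry replicate 2 (adjusted p = 0.0541). CBF3 in Bil-5 differed from the others by 0.27 (adjusted p = 0.632).

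In Tamm-2, CBF2 (0.62 ± 0.13, limma's adjusted p = 0.00171) and CBF3 (1.19 ± 0.23, 0.000784) were higher and 0 lower, against 3.58% and 4.25% of all loci. CBF1 differed there by -0.08 and RD29A by 0.25, neither called (adjusted p = 0.879 and 0.790). In Ull2-5 CBF2 was lower (-0.54 ± 0.13, 0.00663; 3.2% of all loci lower and 4.79% higher), where CBF1 differed by 0.28 (0.469). In Got-22, with 3.95% of all loci higher and 3.85% lower, RD29A was higher (1.28 ± 0.37, 0.0273), a call that ended without dry replicate 1, dry replicate 2, wet replicate 2 or wet replicate 3 (adjusted p up to 0.147). In Omo2-3, with 4.83% of all loci lower and 3.18% higher, ZAT12 was lower (-0.50 ± 0.12, 0.00633), a call that ended without Omo2-3 wet replicate 1 (0.0727). The accession effect on ZAT12 ended without that array (0.0862), Omo2-3 dry replicate 3 (0.0752), all Omo2-3 arrays (0.484) or all Ull2-5 arrays (0.0587). Ag-0, with 5 arrays, had 0 of the 8 called, and 1.86% of all loci higher and 1.66% lower; the smallest adjusted p there was 0.0621 (CBF1).

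At each water level alone, the accession effect was called for CBF1, CBF2, CBF3, RD29A and GOLS3 on the 21 wet arrays (adjusted p from 0.000482 to 0.0219), against 14.7% of all loci. On the 20 dry arrays it was called for CBF2 (0.0410) and GOLS3 (0.0307), against 9.27% of all loci. CBF1 had an adjusted p of 0.0705 and RD29A of 0.283 there. The interaction test called none of the 8, so these counts do not show that the accession effect differed between soils.

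Arrays of 1 group differed much from each other; differences between plants and in array or RNA quality cannot be told apart in this spread. The within-group SD was 0.97 for COR15A, larger than for 99.4% of all loci, 0.86 for RD29A (99.0%), 0.76 for COR15B (98.4%), 0.54 for GOLS3 (94.9%), 0.53 for CBF3 (94.6%) and 0.45 for CBF1 (90.8%). CBF2 (0.30, 74.9%) and ZAT12 (0.27, 70.2%) were steadier. The median locus had an SD of 0.19.

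**Figure D4:**
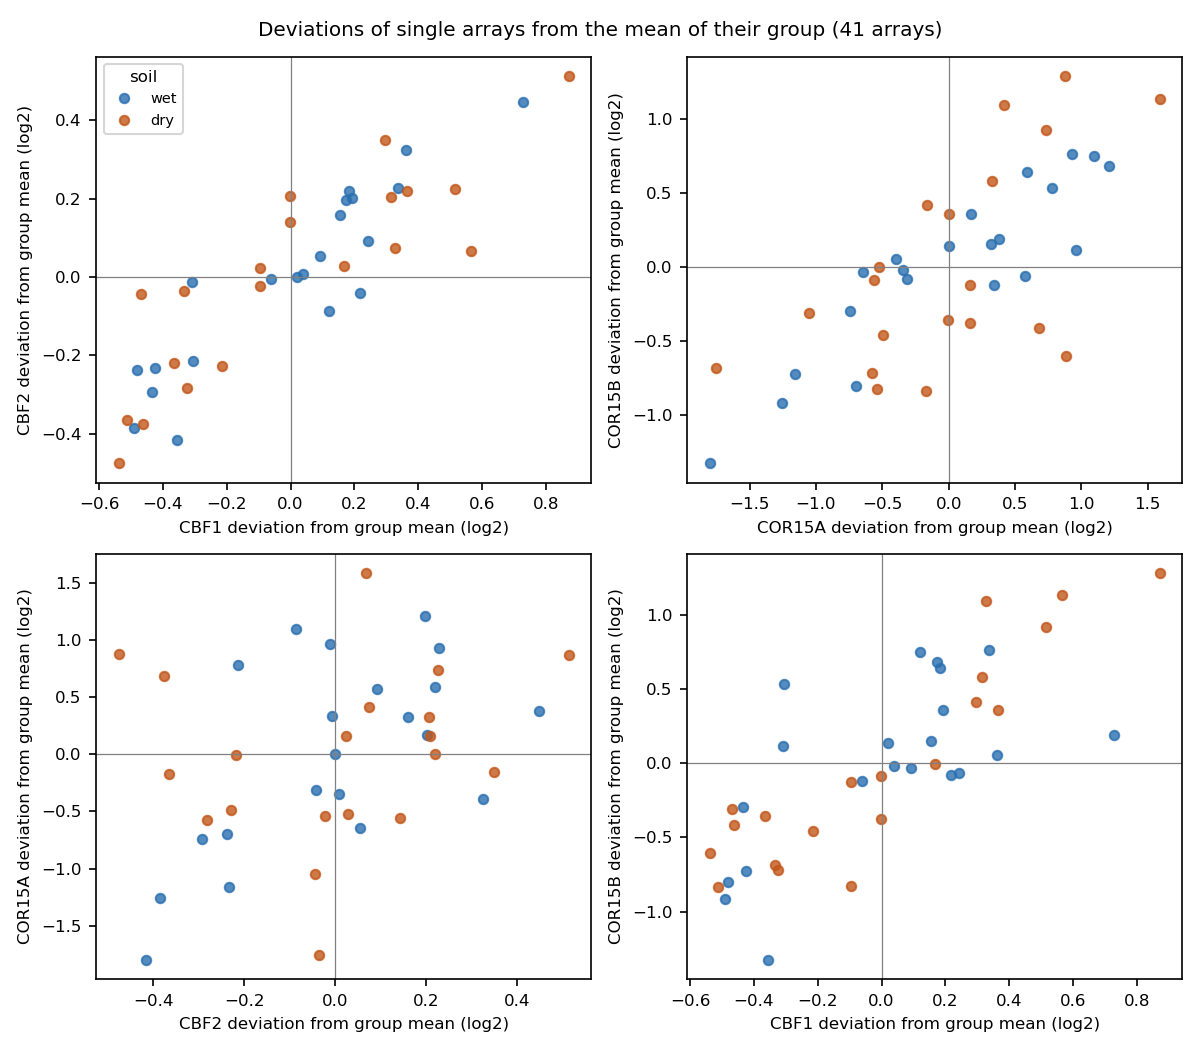
Deviation of each of the 41 arrays from the mean of its group, on the log2 scale, for CBF1 and CBF2, COR15A and COR15B, CBF2 and COR15A, and CBF1 and COR15B, with wet arrays in blue and dry arrays in orange. The first pair of genes deviates together (r = 0.88), as does the second (r = 0.74). The lower panels show the pairs of a CBF gene and a target with the lowest r (0.37, CBF2 and COR15A) and the highest (0.79, CBF1 and COR15B).

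The deviations were shared between genes. On Got-22 wet replicate 1 the deviation from the group mean was -1.80 for COR15A, -1.32 for COR15B, -1.41 for GOLS3, -1.05 for RD29A and -0.57 for CBF3. On Got-22 dry replicate 1 it was 1.59, 1.13, 0.87, 1.07 and 0.95 for the same genes. CBF1 deviated by -0.36 and 0.57 on these arrays in turn, CBF2 by -0.42 and 0.07, and ZAT12 by -0.08 and 0.21. The low array was thus a wet one and the high array a dry one. Tamm-2 dry replicate 2 was low for RD29A (-1.98) and COR15A (-1.75), and less so for COR15B (-0.68), GOLS3 (-0.38) and CBF1 (-0.33). ZAT12 (-0.11), CBF3 (-0.05) and CBF2 (-0.04) lay closer to their group means there.

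Correlations of these deviations over the 41 arrays were computed for 6 pairs, with two-sided permutation within groups (100000 permutations) and Benjamini-Hochberg adjustment over the pairs. CBF1 and CBF2 had r = 0.88 and rho = 0.88, both with p = 1e-05, the smallest these permutations can give (adjusted p = 2e-05). The r was 0.85 without the 2 arrays of most extreme CBF1. The share of all loci that correlated at least as closely with CBF1 was 0.00473%, which counts CBF2 itself. CBF1 and CBF3 had r = 0.74 and rho = 0.75, and CBF2 and CBF3 r = 0.70 and rho = 0.74 (adjusted permutation p = 2e-05 for each), with 0.71 and 0.69 without the extreme arrays. COR15A and COR15B had r = 0.74 and rho = 0.71 (adjusted permutation p = 0.000135), with 0.69 without the extreme arrays, 0.61 on dry and 0.90 on wet arrays.

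All 12 pairs of a CBF gene and a target were then tested in the same way, a choice made after the data were seen, with adjustment over the 12. By Pearson's r 11 passed and by Spearman's rho 12, with r from 0.37 to 0.79. COR15B had r = 0.79 with CBF1, 0.70 with CBF2 and 0.67 with CBF3 (adjusted permutation p = 0.00018, 0.00054 and 0.000669; rho = 0.83, 0.74 and 0.70). GOLS3 had r = 0.61, 0.66 and 0.61 with the same 3 genes (0.00032, 0.00012 and 0.000669; rho = 0.65, 0.72 and 0.58). For RD29A r was 0.63, 0.47 and 0.68 (0.00405, 0.0363 and 0.000669; rho = 0.61, 0.53 and 0.69). COR15A was lower in value, with 0.49, 0.37 and 0.56 (0.025, 0.0935 and 0.00593; rho = 0.47, 0.40 and 0.55). Without the 2 arrays of most extreme CBF value the 12 r ran from 0.42 to 0.80. Between 0.0236% and 7.37% of all loci correlated at least as closely with the CBF gene of a pair, shares that count the target itself.

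Among the 6 pairs tested first, CBF2 and COR15A had r = 0.37 and rho = 0.40 (permutation p = 0.0939 and 0.0457, adjusted p = 0.0939 and 0.0537), with r = 0.42 without the extreme arrays, 0.13 on dry and 0.60 on wet arrays. The pair passed without the 3 arrays of low quality weight (r = 0.49, adjusted permutation p = 0.0213). CBF2 and ZAT12 had r = 0.42 and rho = 0.39 (adjusted permutation p = 0.0617 and 0.0537), with 0.30 without the extreme arrays. Array quality and RNA quality also vary between arrays, and their part in these correlations was not tested beyond that setting. The median r of CBF2 with all loci was 0.02, a description that does not measure the part of array or RNA quality.

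Genes around the pathway were counted in the same fit, against the 12.2% of all loci that rose and the 11.5% that fell. Of 17 measured regulators of CBF expression 2 rose and 2 fell under drying, close to those shares, with a median change of 0.01. OST1, an abscisic acid-activated kinase that also phosphorylates ICE1, rose by 0.52 ± 0.09, and the photoreceptor gene PHYB by 0.48 ± 0.09 (limma's adjusted p = 7.23e-05 and 0.000268). MPK6, a MAP kinase that acts on ICE1, changed by -0.33 ± 0.08 (0.00170) and the calmodulin-binding activator CAMTA2 by -0.12 ± 0.04 (0.0353). The CAMTA2 call ended without any of 12 single arrays and without Eden-1, Got-22 or Tamm-2 (adjusted p up to 0.149). It also ended with a trended robust prior. ICE1 itself, the bHLH activator of CBF3, differed by 0.11 (adjusted p = 0.246).

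**Figure D5:**
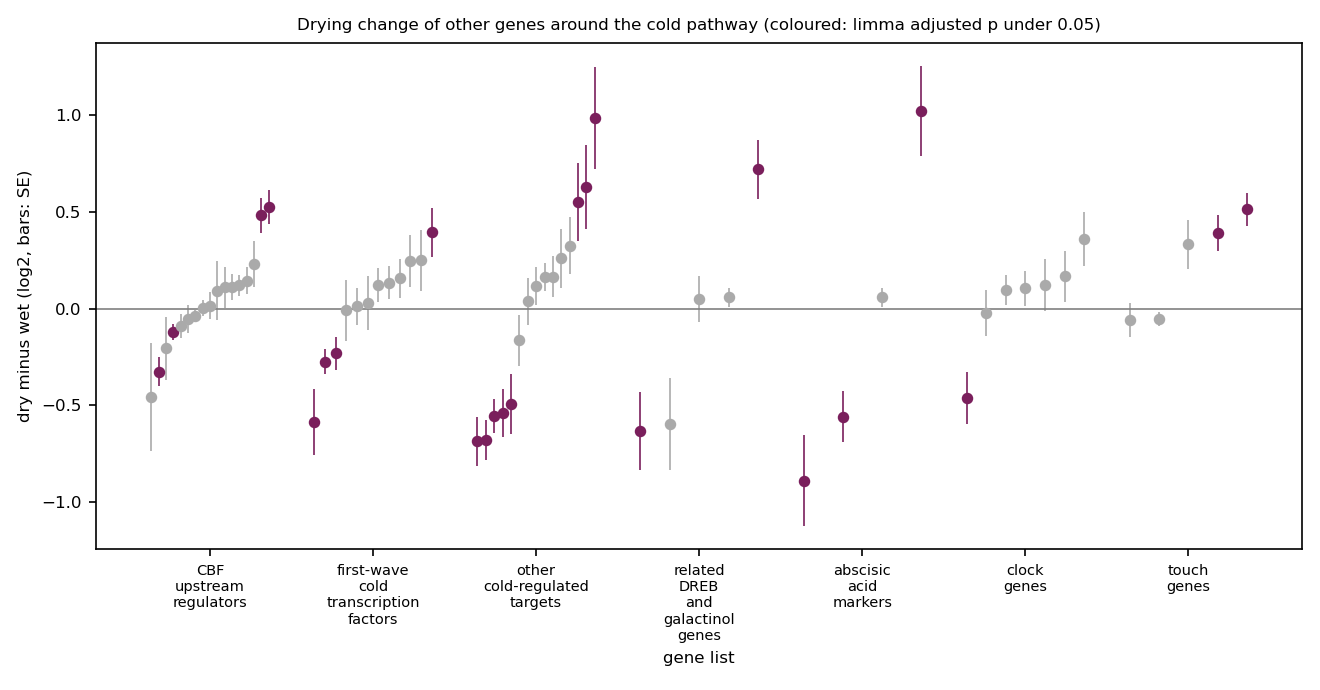
Dry minus wet on the log2 scale, averaged over 7 accessions, for each measured gene of 7 lists, in rising order within a list, with bars of 1 SE and coloured points where limma's adjusted p was under 0.05. In the list of other cold-regulated targets 3 genes rose and 5 fell.

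Of 12 other early cold transcription factors 1 rose and 3 fell (all loci 12.2% and 11.5%), with a median change of 0.07. The WRKY factor WRKY33 rose by 0.39 ± 0.13 on average (limma's adjusted p = 0.0213), but was higher in dry soil in only 4 accessions and lower in 3. DEAR1, a DREB-type factor that lowers CBF expression when overexpressed, changed by -0.59 ± 0.17 (0.0115), RAV1 by -0.27 ± 0.07 (0.00228) and the zinc finger gene ZAT6 by -0.23 ± 0.09 (0.0489). DEAR1 and RAV1 were lower in dry soil in 6 accessions and ZAT6 in 5. The ZAT6 call ended with replicate number as a block (0.0589), with a trended robust prior (0.0539), under the additive model (0.0668), without the 3 arrays of low quality weight (0.0724) and when any of 27 arrays was left out, and that of WRKY33 without Ag-0 dry replicate 3 (adjusted p = 0.0776). Without Tamm-2 the calls of RAV1 and DEAR1 ended (0.0768 and 0.0508), and that of WRKY33 ended without Bil-5, Got-22 or Ag-0 (up to 0.124).

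Of 15 other cold-regulated targets 3 rose and 5 fell (all loci 12.2% and 11.5%), with a median change of 0.12. The small membrane protein genes RCI2B (-0.68 ± 0.10) and RCI2A (-0.69 ± 0.13), SIP1 of the raffinose synthase family (-0.55 ± 0.09) and COR413PM1 of the plasma membrane (-0.54 ± 0.12) fell (limma's adjusted p = 2.27e-05, 0.000182, 2.81e-05 and 0.00184). Named after their values were seen, COR27 rose by 0.98 and COR28 by 0.55, both linked to the clock, and the dehydrin gene LTI30 rose by 0.63 (0.00672, 0.0435 and 0.0346), while HVA22D fell by 0.49 (0.0194). The COR28 call ended without any of 22 single arrays and without Bil-5, Eden-1 or Ag-0 (up to 0.196). It also ended with array quality weights, under the additive model and without the 3 arrays of low quality weight. The LTI30 call ended without any of 16 single arrays, without Eden-1, Tamm-2 or Ag-0 (up to 0.160) and without those 3 arrays. That of COR27 ended without Eden-1 (0.0649), and that of HVA22D without Bil-5, Ull2-5 or Ag-0 (up to 0.114). COR47, a dehydrin gene and classical CBF target, differed by -0.16 ± 0.13 between soils (adjusted p = 0.426) but differed between accessions (F = 7.18, 0.000860), from 10.28 to 11.72.

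Among 5 related genes 1 rose and 1 fell, where 12.2% of all loci rose and 11.5% fell. The same shares of all loci apply to the abscisic acid, clock and touch genes below. DREB2A, the drought and heat counterpart of the CBF factors, rose by 0.72 ± 0.15 in 7 of 7 accessions (limma's adjusted p = 0.000736). GOLS1, another galactinol synthase gene, fell by 0.63 (0.0205), a call that ended without Ag-0 dry replicate 2 (0.0547) or all Omo2-3 arrays (0.0584). GOLS2 differed by -0.59 ± 0.24 without passing (0.0695). CBF4, the CBF relative linked to drought and abscisic acid, differed by 0.05 ± 0.12 (adjusted p = 0.821). Of the 4 abscisic acid markers RAB18 rose, RD22 (-0.56 ± 0.13) and RD20 (-0.89 ± 0.24) fell, and RD29B, the neighbour of RD29A on the chromosome, differed by 0.06 ± 0.05 (0.463). Of 7 clock genes 0 rose and 1, PRR5, fell, close to the share of all loci that fell. CCA1 differed by 0.36 ± 0.14, higher in dry soil in 7 of 7 accessions (0.0624). Of 5 touch genes 2 rose and 0 fell, and TCH3 differed by -0.06 (0.695).

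The accession effect was called for 7 of the 17 regulators, 5 of the 12 early factors, 8 of the 15 other targets and 3 of the 5 related genes, against 31.4% of all loci. By p the leading genes were SOC1, a flowering integrator that lowers CBF expression (4.35 to 7.55 across accessions, F = 34.4), PIF3 (F = 15.2), the heat shock factor gene HSFC1 (F = 15.0), RCI2B (F = 16.8) and DREB2B (F = 10.4). The drying change of none of these listed genes differed between accessions by the interaction test.

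Among loci other than the 8 members, those of most similar pattern were ranked by Pearson's r over the 14 group means, as a description, since the 14 means share accessions. For CBF1 they were COR47 (0.90), AT3G28320 (0.90) and ABCG32 (0.90), and for CBF2 PROT2 (0.93), HB16 (0.91) and IAA1 (0.91). IAA1 (0.94), AT1G51805 (0.91) and AT3G04010 (0.89) were closest to CBF3. For COR15A they were AT1G67340 (0.96), AT3G07400 (0.92) and HCAR (0.89), and for COR15B AT3G07400 (0.90), HB-8 (0.89) and ERD10 (0.87). AT5G44530 (0.89), IAA6 (0.87) and GA2OX8 (0.87) were closest to RD29A, and PAT1 (0.90), AT1G11700 (0.90) and AT4G33040 (0.89) to GOLS3. For ZAT12 they were DCL1 (0.97), NF-YA5 (0.94) and AT5G25520 (0.94). The 8 members were left out of these ranks. Among them RD29A and GOLS3 had r = 0.91, above any other locus for RD29A, COR15A and COR15B 0.90 and CBF2 and RD29A 0.86, while ZAT12 had r between -0.28 and 0.14 with the other 7.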

How the data were processed

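The authors deposited 1 log2 value per locus and array; that the scale is log2 was inferred from the values, which ran from 3.35 to 14.30. The submitters' processing notes name RMA and MAS5 but give neither a role nor a version. The sources used here do not give the probe filter or genome build. Precision is limited by how many arrays each group holds. The design text calls replicates biological and names 18 accessions, of which 7 are analysed here.

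All loci were kept as deposited. Means of the 14 groups were fitted with limma 3.58.1 (R 4.3.3; 27 residual and 2.06 prior degrees of freedom), which pooled the spread. Drying was the equally weighted mean of dry minus wet over accessions. F tests had 6 numerator degrees of freedom. The fit was tested on simulated data. Correlations used SciPy 1.17.1 and NumPy 2.4.6.

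The members, gene lists and tests were chosen with earlier results of these data known. Named genes are all measured members, up to 4 loci of each list with the smallest drying p and up to 2 with the smallest accession p, RD29B, RAB18, CCA1 and TCH3 whatever their value, and the 3 loci closest to each member. ICE1 and those marked in the text were chosen after their values were seen. Symbols come from a RefSeq gene table (assembly TAIR10.1), which matched 20972 loci. Promoter motifs are not analysed here.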

Additional observations from a re-analysis of the deposited data

How the results depend on the processing

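Quantile normalization, median centring, omission of the lowest 25% of loci, a trended robust prior, array quality weights and omission of the 3 arrays of low quality weight each left 1 member that rose, 1 that fell, 7 with an accession effect and 0 with an interaction. An additive model also gave 1 and 1. The fit with replicate number as a block gave 1, 1, 7 and 0, and 15 values of 1 accession against the other 6; GOLS3 then had limma's adjusted p of 0.0494, and over all loci 2554 rose and 2442 fell. The block was shared by all accessions, and pairing of arrays by number within an accession was not fitted. Correlations of same-numbered dry and wet deviations ran from -0.49 to 0.54 over 20 pairs (median 0.105), 10 of them over 0.1. Leaving out 1 array or accession gave 1 member that rose, 0 to 1 that fell, 6 to 8 with an accession effect and 0 with an interaction. Leaving out 1 array gave 14 to 18 values of 1 accession against the others and 0 drying changes within an accession. Array quality weights gave 20 values of 1 accession against the others, and omission of the 3 arrays of low quality weight gave 16. COR15B had an accession effect without Got-22 wet replicate 1 (limma's adjusted p = 0.0282).

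The 4 lists held 17 regulators, 12 early factors, 15 other targets and 5 related genes. In these lists together 7 loci rose, 11 fell and 23 had an accession effect. Over all loci 12.2% rose, 11.5% fell and 31.4% had an accession effect. Leaving out 1 array or accession gave 4 to 9, 8 to 12 and 14 to 27 loci of the lists. The lowest count of 14 came without Eden-1, and 4 rose without Eden-1 or Ag-0. Array quality weights gave 8, 12 and 33, and omission of the 3 arrays of low quality weight gave 5, 10 and 29. On wet arrays only, 13 of these loci had an accession effect, against 14.7% of all loci. On dry arrays only, 7 of these loci and 2 members had one, against 9.27% of all loci. These fits hold fewer arrays. The correlation of CBF2 and COR15A passed without the arrays of low quality weight (r = 0.49). Over all loci 6635 had an accession effect and 6 an interaction, against 10129 and 99 with array quality weights and 8950 and 38 without the 3 arrays; the cause was not tested. Changes within an accession had an SE of up to 0.85 (COR15A in Ag-0).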

Other observations

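In pairs chosen after the data were seen, deviations of CBF2 from its group means were set against those of 7 clock and 5 touch genes over the 41 arrays, 12 correlations in all. None passed by permutation after adjustment (adjusted p at least 0.376 for Pearson's r and 0.367 for Spearman's rho). The highest were GI (r = 0.37, rho = 0.39, with r = 0.45 without the 2 arrays of most extreme CBF2) and WRKY40 (r = 0.36, rho = 0.33, with r = 0.34). LHY was at r = -0.01. The values for GI were 0.07 on dry and 0.68 on wet arrays, and those of ELF4 -0.65 and 0.55; the difference between water levels was not tested.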
